A study of Mus musculus with 15 samples.

Results

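This account follows 10 genes of the dolichol-linked oligosaccharide pathway, Dpagt1, Alg14, Alg1, Alg2, Alg3, Alg9, Alg12, Alg5, Alg6 and Alg8, across 15 arrays of primary mouse hepatocytes. The genes were taken by name, in pathway order, with earlier results of these data known, and every probe set that the platform annotation gives to 1 of them alone was taken, which made 18 of the 45037 non-control probe sets on the array (10 of 18193 genes). Of the 18, 16 reached a log2 signal of 4 in at least 3 arrays and were tested. The other 2 are dim second probe sets of Alg9 (3.07 to 3.53) and Alg5 (3.45 to 4.02), genes that are each measured by a bright probe set. Where a gene has several, they are called the brightest, the second and the third by mean signal.

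The hepatocytes came from C57BL/6 mice, and every culture, controls included, had received an adenovirus. In the first arm, the virus carried EGFP as control, wild-type IRE1a, or IRE1a with the change S724A (a serine replaced by alanine), for 48 hours without treatment. In the second arm it carried a control hairpin or a single hairpin against IRE1a for 72 hours, and both groups then received glucagon for 4 hours. Each of the 5 groups had 3 arrays, from experiments that the series describes as 3 independent ones, and uninfected cultures are not analysed here. The arms differ in virus, time and hormone at once, so levels are set side by side across them but not tested.

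N-glycans are assembled on the lipid dolichol before they reach a protein. Enzymes on the cytosolic face of the endoplasmic reticulum (ER) add N-acetylglucosamine and mannose from nucleotide sugars, the chain is then turned to the lumen, and further mannoses and glucoses are added there from dolichol-bound sugars until the oligosaccharyltransferase moves the whole chain to asparagines of new proteins. Hepatocytes secrete most plasma glycoproteins and depend on this supply. IRE1a, encoded by Ern1, is a stress sensor of the ER whose RNase splices the messenger of the transcription factor XBP1, and known XBP1 targets include genes of ER import, folding and glycosylation.

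Array medians lay between 5.69 and 5.83, between 79.0% and 81.4% of probe sets reached 4, and arrays of 1 group correlated with r from 0.976 to 0.994. Ern1 has 5 probe sets, and 1 of them, at 8.89, 8.96 and 9.10 with the control hairpin and 7.60, 7.44 and 7.51 with the IRE1a hairpin, fell with the IRE1a hairpin by 1.47 ± 0.19 (2.76-fold lower, limma adjusted p = 0.00505), while 3 of the others were lower and 1 higher without passing. With the wild-type and S724A viruses, 0 of the 5 Ern1 probe sets rose (differences from -0.37 to 0.46), so these probe sets do not show the overexpression that the labels state; whether the viral transcript holds the probed sequence was not tested, so they check nothing about it. The mean signal of 10 hepatocyte markers lay between 12.4 and 13.0 on every array, and Alb averaged 14.3. List means of other liver cells were far lower, lowest for lymphocytes and neutrophils (4.1 to 4.5) and highest for cholangiocytes (5.8 to 6.7). Single markers spread widely: in the cholangiocyte list Krt7 averaged 3.70 and Cldn4 8.35 (6.68 to 11.2 over the arrays), and in the endothelial list Vwf averaged 3.60 and Stab2 6.27. The cholangiocyte list mean lay between 5.8 and 6.4 with EGFP and both IRE1a viruses and between 6.1 and 6.7 in the hairpin groups, and its part in the results was not tested. The macrophage list lay between 5.7 and 6.2, although its member Cd68 averaged 11.7. Of the 34 tested markers of other cells 0 were called in the 4 comparisons, and among the 10 hepatocyte markers Hnf4a rose with wild-type IRE1a. Over all genes at 1 probe set each, 4.21% rose and 2.17% fell with wild-type IRE1a, and 3.25% rose and 1.75% fell with S724A IRE1a. The hairpin comparison called 0.166% of genes, and wild-type against S724A IRE1a 0% of all probe sets. Such low shares leave few calls for any 34 genes, and a change in cell mix was not tested.

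Wild-type and S724A IRE1a were each compared with EGFP to see what the viruses changed in the pathway. In both comparisons the same 4 genes rose and the same 1 fell: Dpagt1, Alg14, Alg2 and Alg12 were higher, by 1.49-fold to 2.54-fold at the probe sets that passed, and Alg1 was lower. The other 5 genes, Alg3, Alg9, Alg5, Alg6 and Alg8, did not pass in either comparison. By probe set, 5 of 16 rose and 1 fell with wild-type IRE1a, against 3.08% rising and 1.72% falling among all 37203 probe sets tested. With S724A IRE1a 6 rose and 1 fell, against 2.58% and 1.5%. These shares of all probe sets include many dim ones. With a stricter limit of 6 in at least 3 arrays, 1327 of 22471 rose and 680 fell with wild-type IRE1a. With S724A IRE1a 1075 of the 22471 rose and 475 fell, so the shares of all were higher there. Rises made up 64.2% and 63.2% of all calls with the wild-type and S724A viruses, and 54.5% and 51.5% after quantile normalization, under which the calls of these 5 genes held. Leaving out 1 array lowered the calls among all probe sets to between 561 and 1043 rises with wild-type and 469 and 936 with S724A IRE1a, from 1147 and 959, with the fewest for both without EGFP replicate 2. The median difference over the 16 was 0.22 with wild-type and 0.30 with S724A IRE1a, beside -0.01 over all tested probe sets in both. Over all probe sets that reached the limit of 6 the medians were 0.03 and 0.07. The comparisons share the EGFP arrays, so that the likeness of their calls is not independent evidence. Below, array values are given for each gene, also where an IRE1a group did not overlap with EGFP. How many of all probe sets were so separated was not counted, so nothing is drawn from such separation. Differences are given as log2 signals ± SE from limma with n = 3 arrays per group, group levels as mean ± SD, and p-values are adjusted over all 37203 probe sets. In a culture, fewer cells of a type and less RNA per cell cannot be told apart.

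**Figure D1:**
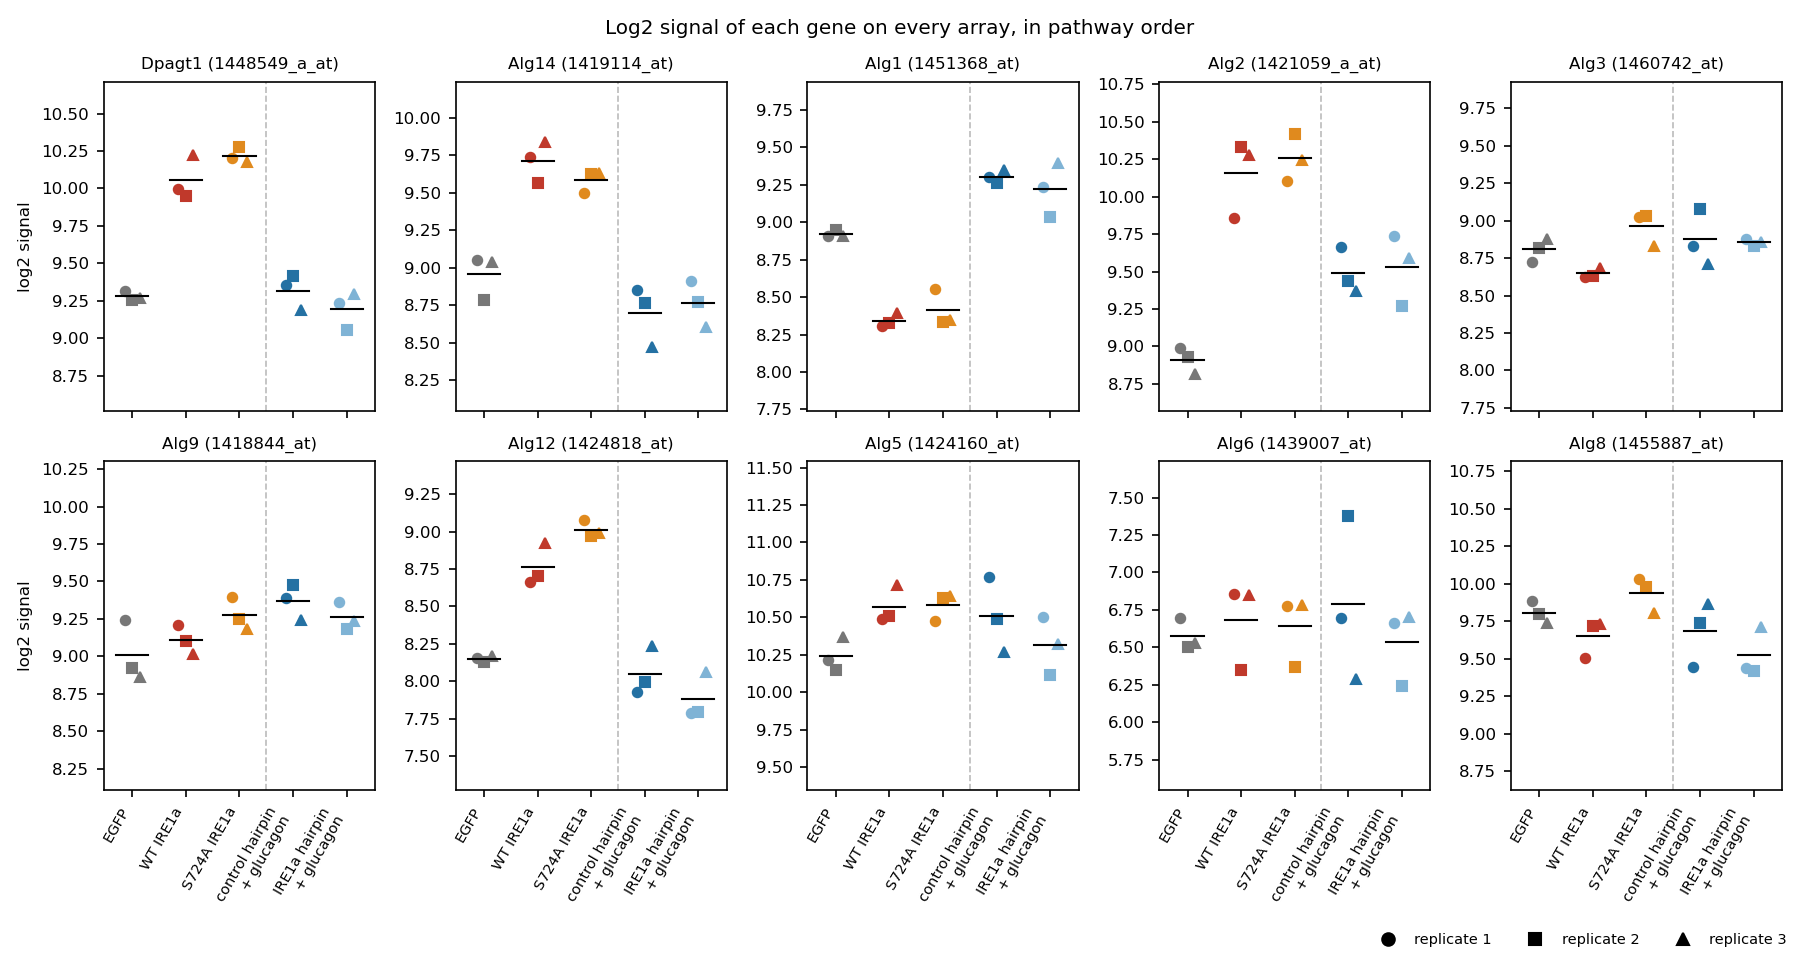
Log2 signal of the brightest probe set of each of the 10 genes on all 15 arrays, in pathway order. Symbols mark replicates 1 to 3, black bars the group means, the dashed line separates the 48-hour and 72-hour arms, and each panel spans the same range of log2 units. Dpagt1, Alg14, Alg2 and Alg12 lie higher in both IRE1a groups than with EGFP and Alg1 lies lower, while the other panels show group means within 0.34 of EGFP in those groups.

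The cytosolic face holds 4 of the genes, and of these 3 rose and 1 fell in each comparison. Dpagt1 starts the chain by placing N-acetylglucosamine phosphate on dolichol phosphate and is the enzyme blocked by tunicamycin. Its probe set read 9.31, 9.26 and 9.27 with EGFP, 9.999, 9.95 and 10.22 with wild-type IRE1a, and 10.20, 10.28 and 10.18 with S724A IRE1a. The EGFP arrays were tightly grouped and no array of either IRE1a group came near them. Dpagt1 rose by 0.78 ± 0.10 with wild-type IRE1a (1.71-fold, adjusted p = 0.000456) and by 0.94 ± 0.10 with S724A IRE1a (1.92-fold, adjusted p = 9.36e-05). In the glucagon arm it read 9.35, 9.41 and 9.19 with the control hairpin and 9.23, 9.05 and 9.30 with the IRE1a hairpin, a range that holds the EGFP arrays.

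Alg14 anchors the enzyme that adds the second N-acetylglucosamine, with Alg13 as its catalytic partner. The brightest of its 3 probe sets read 9.05, 8.79 and 9.04 with EGFP, 9.74, 9.56 and 9.84 with wild-type IRE1a and 9.50, 9.63 and 9.63 with S724A IRE1a, so that the lowest IRE1a array lay above the highest EGFP array. It rose by 0.76 ± 0.13 with wild-type IRE1a (1.69-fold, adjusted p = 0.00283) and by 0.63 ± 0.13 with S724A IRE1a (1.54-fold, adjusted p = 0.0113). The second probe set had similar differences of 0.64 ± 0.20 and 0.71 ± 0.20 without passing (adjusted p = 0.0918 and 0.0653), and its arrays did not overlap with EGFP either. The third lay between 4.16 and 4.90 on all arrays and differed by -0.17 and -0.16. With the mean of the 3 probe sets the calls of Alg14 were lost (0.41 and 0.39, adjusted p = 0.0629 and 0.0761), and leaving out the second EGFP array, or the second or the third S724A array, also ended the S724A call (adjusted p = 0.0691, 0.0552 and 0.0506). Alg13, outside the 10 genes, was higher by 0.53 ± 0.15 and 0.43 ± 0.15 and did not pass (adjusted p = 0.0690 and 0.138).

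Alg1 adds the first mannose and was the 1 gene of the pathway to fall. Its probe set read 8.91, 8.95 and 8.91 with EGFP, 8.31, 8.32 and 8.39 with wild-type IRE1a and 8.55, 8.33 and 8.35 with S724A IRE1a. All 6 IRE1a arrays were lower than every EGFP array. Alg1 fell by 0.58 ± 0.10 with wild-type IRE1a (1.49-fold lower, adjusted p = 0.00425) and by 0.51 ± 0.10 with S724A IRE1a (1.42-fold lower, adjusted p = 0.0113). The second of these calls did not survive leaving out any of the same 3 arrays, taken in that order (adjusted p = 0.0528, 0.0639 and 0.0563). Both hairpin groups had Alg1 signals higher than EGFP, at 9.30, 9.26 and 9.35 with the control hairpin and 9.24, 9.03 and 9.40 with the IRE1a hairpin.

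Alg2, which adds the next 2 mannoses, had the largest rise of the 10 genes. The brighter of its probe sets read 8.99, 8.93 and 8.81 with EGFP, 9.86, 10.33 and 10.28 with wild-type IRE1a and 10.10, 10.42 and 10.25 with S724A IRE1a. Wild-type replicate 1 was the lowest of the 6 IRE1a arrays and still lay above every EGFP array. The rises were 1.24 ± 0.15 (2.37-fold, adjusted p = 0.000219) and 1.34 ± 0.15 (2.54-fold, adjusted p = 0.000107). The hairpin arrays lay between EGFP and the IRE1a groups, at 9.67, 9.43 and 9.37 with the control hairpin and 9.74, 9.27 and 9.59 with the IRE1a hairpin. Its dim second probe set stayed between 4.30 and 4.94 on all arrays and differed by -0.06 and -0.21, so that the mean of both probe sets rose by 0.59 and 0.57 (adjusted p = 0.00117 and 0.00180).

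Of the 3 lumenal mannosyltransferases, which use dolichol phosphate mannose, Alg12 rose and Alg3 and Alg9 did not pass. Alg12 is measured by 3 probe sets that gave like differences from EGFP. The brightest read 8.15, 8.13 and 8.17 with EGFP, 8.66, 8.70 and 8.92 with wild-type IRE1a and 9.08, 8.97 and 8.99 with S724A IRE1a. The wild-type and S724A arrays overlapped at the other Alg12 probe sets. Only the brightest had the order EGFP, wild-type and S724A with no overlap between neighbours, and nothing is drawn from this order. At this probe set Alg12 rose by 0.61 ± 0.11 (1.53-fold, adjusted p = 0.00497) and by 0.86 ± 0.11 (1.82-fold, adjusted p = 0.000389). At the third probe set the rises were 0.58 ± 0.11 and 0.92 ± 0.11 (adjusted p = 0.00609 and 0.000164). The second probe set differed by 0.57 ± 0.16 with wild-type IRE1a, where it did not pass (adjusted p = 0.0601), and rose by 0.90 ± 0.16 with S724A IRE1a (adjusted p = 0.00452). In the glucagon arm the brightest probe set averaged 8.05 ± 0.16 with the control hairpin and 7.88 ± 0.15 with the IRE1a hairpin.

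Promoter sequence is shown for Alg12, Alg14 and Alg1, members that rose or fell and had an entry in the RefSeq promoter table (assembly GRCm38.p6), to set genes of opposite direction beside each other. Of the 10 genes, 8 had an entry, and Dpagt1 and Alg2 had none. Each line gives the 250 bases before the annotated gene start, 5′ to 3′ on the gene's strand, and capitals mark matches to the letters searched. The windows are chr15:88819319-88819568 on the minus strand for Alg12, chr3:121291490-121291739 on the plus strand for Alg14 and chr16:5233371-5233620 on the plus strand for Alg1.
Alg12: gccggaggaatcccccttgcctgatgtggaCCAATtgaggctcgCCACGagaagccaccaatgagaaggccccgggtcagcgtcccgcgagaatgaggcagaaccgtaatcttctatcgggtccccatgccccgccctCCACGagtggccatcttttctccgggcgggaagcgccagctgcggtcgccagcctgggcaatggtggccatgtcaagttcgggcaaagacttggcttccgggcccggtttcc
Alg14: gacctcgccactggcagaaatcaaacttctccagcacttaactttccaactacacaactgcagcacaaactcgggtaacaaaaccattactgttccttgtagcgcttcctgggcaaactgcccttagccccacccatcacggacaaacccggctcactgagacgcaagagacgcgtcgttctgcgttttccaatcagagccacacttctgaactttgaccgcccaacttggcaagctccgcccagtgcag
Alg1: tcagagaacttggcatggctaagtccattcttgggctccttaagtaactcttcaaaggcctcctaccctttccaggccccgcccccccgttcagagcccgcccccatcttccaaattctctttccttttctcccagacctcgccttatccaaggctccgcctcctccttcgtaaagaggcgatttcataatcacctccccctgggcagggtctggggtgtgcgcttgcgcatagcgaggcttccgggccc

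The search covered both strands of the 300 bases from 250 before to 50 after each start. The ER stress response element (ERSE), which is CCAAT followed after 9 bases by CCACG, was found in 1 of the 8 promoters, that of Alg12, starting 220 bases before the gene start. The same element was present in 39 of 32851 promoters in the table (0.119%). Its CCACG end occurs once more in Alg12, 112 bases before the start, and any ERSE match also counts as a match to it. CCACG alone was in 4 of the 8 promoters (Alg1, Alg12, Alg5 and Alg6) and in 32.8% of all, and ACGTG was in Alg1 and Alg6 and in 19.6% of all. In Alg1 these matches lie after the gene start, outside the bases printed, and Alg14 had none. The ERSE-II element (ATTGG, 1 base, then CCACG, 0.0365% of promoters) and the UPR element TGACGTGG (0.676%) were in none of the 8 windows. A match describes the letters in this window and not the binding of a factor.

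Alg3 adds the first mannose on the lumenal side. Its probe set read 8.72, 8.82 and 8.88 with EGFP, 8.63, 8.63 and 8.68 with wild-type IRE1a and 9.02, 9.03 and 8.83 with S724A IRE1a. It thus lay lower than EGFP on all wild-type arrays (-0.16 ± 0.10, adjusted p = 0.472) and overlapped with EGFP with S724A IRE1a (0.16 ± 0.10, adjusted p = 0.413). Alg9, which works at later lumenal mannose steps, read 9.24, 8.92 and 8.86 with EGFP, with group means of 9.11 ± 0.09 and 9.28 ± 0.11 in the wild-type and S724A groups. EGFP replicate 1 stood above the other EGFP arrays, and the differences of 0.10 ± 0.12 and 0.27 ± 0.12 did not pass (adjusted p = 0.726 and 0.211).

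The 3 genes of the glucose branch did not pass in either comparison. Alg5 makes dolichol phosphate glucose, the donor for the terminal glucoses. It read 10.22, 10.15 and 10.37 with EGFP, 10.49, 10.51 and 10.72 with wild-type IRE1a and 10.48, 10.63 and 10.64 with S724A IRE1a. Its IRE1a arrays all lay above EGFP, yet the differences of 0.33 ± 0.14 and 0.34 ± 0.14 gave adjusted p = 0.222 and 0.178. Alg6 adds the first glucose. Its 2 probe sets ranged from 6.24 to 7.38 and from 5.73 to 6.53 over the 15 arrays, and their differences from EGFP lay between -0.23 and 0.11. They averaged 6.65 and 5.99, near the endothelial marker Stab2 (6.27), and the brighter had the largest SE of the pathway (0.23). A missed threshold at such signals says little about Alg6. Alg8, which adds the second glucose, averaged 9.81 ± 0.08 with EGFP, 9.65 ± 0.13 with wild-type IRE1a and 9.94 ± 0.12 with S724A IRE1a (differences of -0.15 ± 0.13 and 0.13 ± 0.13, adjusted p = 0.580 and 0.569). Its wild-type arrays all lay below EGFP, the highest at 9.730 beside 9.736 for the lowest EGFP array, and its S724A arrays overlapped with EGFP. As for the other genes separated from EGFP, how many of all probe sets were so separated was not counted.

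**Figure D2:**
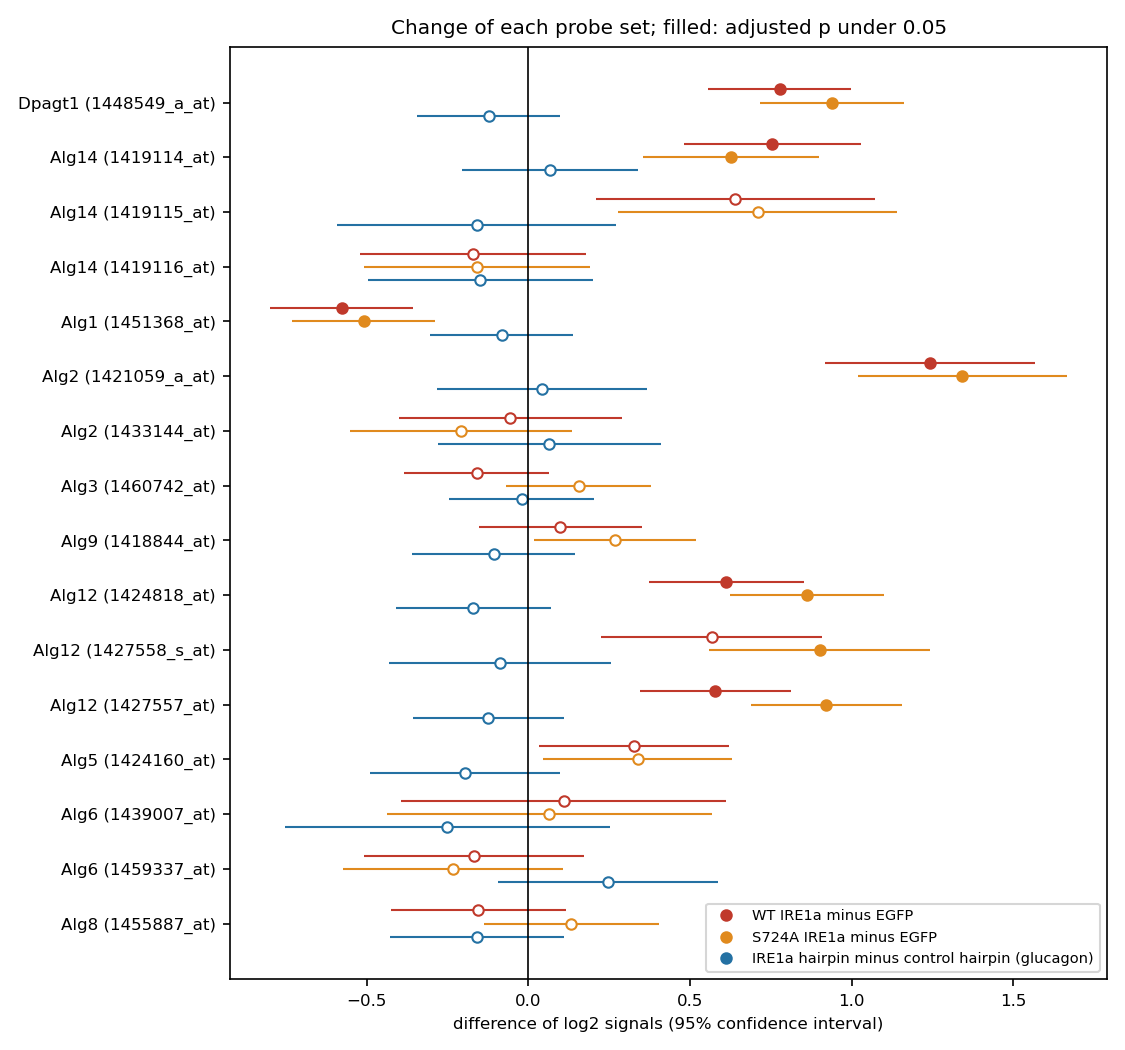
Differences of log2 signals with 95% confidence intervals for the 16 tested probe sets, in pathway order, for each IRE1a virus against EGFP (wild-type red, S724A orange) and for the IRE1a hairpin against the control hairpin (blue). Filled points have adjusted p under 0.05; the hairpin comparison has none, and its differences lie between -0.25 and 0.25.

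Wild-type IRE1a was compared with S724A IRE1a directly to ask whether the altered residue changed the effect. Limma called 0 of the 16 probe sets and 0 of all 37203 (0%), while 4 of the 16 and 2931 of all (7.88%) had an unadjusted p under 0.05. The 4 were Alg3 (-0.32, 95% interval -0.54 to -0.09), Alg12 at the third (-0.34, -0.58 to -0.11) and brightest probe sets (-0.25, -0.49 to -0.01), and Alg8 (-0.29, -0.56 to -0.02), each lower with wild-type IRE1a and each with adjusted p of 0.594 or more. The arrays of Alg3, Alg8 and the brightest Alg12 probe set did not overlap between these groups. How many of all probe sets were separated in this way was not counted, so nothing is drawn from this separation. For Dpagt1, Alg14, Alg1 and Alg2 the differences were -0.16 (-0.38 to 0.06), 0.13 (-0.14 to 0.40), -0.07 (-0.29 to 0.15) and -0.10 (-0.42 to 0.22) at their brightest probe sets. These intervals leave room for differences of either sign, and a missed threshold does not show that the forms act alike.

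The IRE1a hairpin was compared with the control hairpin, both under glucagon, to ask what less IRE1a changes in the pathway. Limma called 0 of the 16 probe sets, against 0.151% of all tested (56 probe sets, and between 18 without IRE1a hairpin replicate 1 and 89 without control hairpin replicate 3), and 0 of the 16 had an unadjusted p under 0.05, against 2861 (7.69%) of all. The lowest adjusted p was 0.733, and 12 of the 16 differences were below 0 with a median of -0.12 (0.01 over all probe sets). For the genes that moved in the first arm, the differences were -0.12 (95% interval -0.35 to 0.10) for Dpagt1, 0.07 (-0.21 to 0.34) for Alg14, -0.08 (-0.30 to 0.14) for Alg1, 0.04 (-0.28 to 0.37) for Alg2 and -0.17 (-0.41 to 0.07) for Alg12 at their brightest probe sets. At the third Alg12 probe set the 3 arrays with the IRE1a hairpin, 6.61, 6.66 and 6.65, lay below the 3 of the control hairpin, 6.69, 6.80 and 6.81, a difference of -0.12 ± 0.11 (adjusted p = 0.801). The second Alg6 probe set was also separated, in the other direction: 6.00, 6.53 and 5.98 with the IRE1a hairpin lay above 5.90, 5.97 and 5.90 with the control hairpin, a difference of 0.25 ± 0.16 (adjusted p = 0.733). The share of all probe sets separated in this way was not counted, and nothing is drawn from either separation. The brightest Alg6 probe set gave -0.25 ± 0.23; control hairpin replicate 2 was the highest of all 15 arrays there, with 7.38.

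The change with each IRE1a virus was then tested against the change with the hairpin, in a contrast with no control arrays shared between the arms. The contrast reuses the EGFP and virus arrays, so that its calls are not independent of the comparisons with EGFP. Dpagt1, Alg2 and Alg12 passed for both viruses, while Alg14 and Alg1 passed for neither in the fit of all 15 arrays and for one or both under some alternatives. With wild-type IRE1a 4 of 16 probe sets passed (2.64% of all), and with S724A IRE1a 5 of 16 (2.84%). These shares of all, 981 and 1056 probe sets, depended on single arrays. Leaving out 1 array gave between 555 and 1214 calls with wild-type and between 558 and 2105 with S724A IRE1a. The difference of changes for Dpagt1 was 0.90 ± 0.15 with wild-type (adjusted p = 0.00448) and 1.06 ± 0.15 with S724A IRE1a (adjusted p = 0.00131). For Alg2 it was 1.20 ± 0.21 (adjusted p = 0.00762) and 1.30 ± 0.21 (adjusted p = 0.00461), and for the brightest Alg12 probe set 0.78 ± 0.16 (adjusted p = 0.0166) and 1.03 ± 0.16 (adjusted p = 0.00290). The brightest Alg14 probe set gave 0.69 ± 0.18 and 0.56 ± 0.18 (adjusted p = 0.0596 and 0.104). The first of these Alg14 values passed with the stricter filter on dim signals (adjusted p = 0.0419), with 1 probe set per gene (adjusted p = 0.0439) and without control hairpin replicate 3 (adjusted p = 0.0249). Leaving out control hairpin replicate 3 also brought the second Alg14 probe set past the threshold for both viruses (adjusted p = 0.0488 and 0.0388). Alg1 gave -0.49 ± 0.15 and -0.43 ± 0.15 (adjusted p = 0.0939 and 0.122), and both passed after quantile normalization (adjusted p = 0.0297 and 0.0358); the first also passed without IRE1a hairpin replicate 2 (adjusted p = 0.0449). Time, virus and glucagon differ between the arms and cannot be told apart from the direction of the IRE1a change here.

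Genes that feed the pathway or use its product were read from lists of other glycosylation genes, with the brightest probe set standing for each gene. Sugar nucleotide supply had 5 of 16 genes rising and 0 falling in both comparisons with EGFP, the same 5 genes each time. Over all 16294 genes at 1 probe set each, 4.21% rose and 2.17% fell with wild-type IRE1a, and 3.25% rose and 1.75% fell with S724A IRE1a. Gmppb, which makes GDP-mannose, rose by 1.66 ± 0.21 with wild-type and 1.74 ± 0.21 with S724A IRE1a (adjusted p = 0.000300 and 0.000205). Gmppb signals were 8.65, 8.32 and 8.69 with EGFP and 9.88, 10.25 and 10.53 with wild-type IRE1a. Its relative Gmppa rose by 1.25 ± 0.11 and 1.15 ± 0.11. Gfpt1, which commits sugar to the hexosamine route, rose by 1.46 ± 0.22 and 1.47 ± 0.22, and Pgm3 of the same route, which ends in UDP-N-acetylglucosamine, by 1.07 ± 0.16 and 1.04 ± 0.16. The fifth gene, Uap1, was named after its values were seen and rose by 0.83 ± 0.15 in both comparisons. Gfpt1 was also high with the control hairpin, at 9.51, 9.17 and 8.57 against 7.91, 7.78 and 7.86 with EGFP. The list median was 0.34 and 0.20, beside -0.01 over all probe sets.

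Of 8 genes that make dolichol or charge it with mannose, 2 rose and 0 fell with each virus, beside 4.21% and 3.25% of all genes rising. Dhdds, a subunit of the enzyme that builds the polyprenyl chain, rose by 0.43 ± 0.10 and 0.51 ± 0.10 (adjusted p = 0.0267 and 0.0108), and Dpm2, a subunit of dolichol phosphate mannose synthase, by 0.42 ± 0.10 and 0.40 ± 0.10 (adjusted p = 0.0238 and 0.0336). Of 4 further assembly genes, Alg13, Alg11, Alg10b and Mpdu1, 0 passed, with Alg11, which adds the last mannoses on the cytosolic face, at 0.25 ± 0.13 and 0.36 ± 0.13. Downstream, 8 and 9 of 12 oligosaccharyltransferase subunits rose and 0 fell, with medians of 0.60 and 0.65, against 4.21% and 3.25% of all genes rising. Magt1 rose by 1.76 ± 0.13 with each virus, Ostc by 2.10 ± 0.16 and 2.03 ± 0.16, and Dad1 by 1.12 ± 0.12 and 1.001 ± 0.116. Of 14 genes of glycan trimming and lectin chaperones 6 and 7 rose and 0 fell, with medians of 0.32 and 0.47, beside the same shares of all genes. Edem2 and Edem1, lectins of the disposal of misfolded glycoproteins, rose by 1.69 ± 0.15 and 0.81 ± 0.14 with wild-type and by 1.70 ± 0.15 and 0.997 ± 0.139 with S724A IRE1a. Calr, the lectin chaperone calreticulin, rose by 0.98 ± 0.13 and 1.34 ± 0.13. Mogs, the glucosidase that removes the outermost glucose, rose by 0.73 ± 0.12 and 0.84 ± 0.12, and Uggt1, named for its rank in the hairpin comparison, which puts glucose back on misfolded glycoproteins, by 0.57 ± 0.15 and 0.86 ± 0.15. In the hairpin comparison 0 genes of these lists passed, against 0.166% of all genes; the smallest p belonged to the oligosaccharyltransferase subunit Magt1, at -0.58 ± 0.13 (adjusted p = 0.135).

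**Figure D3:**
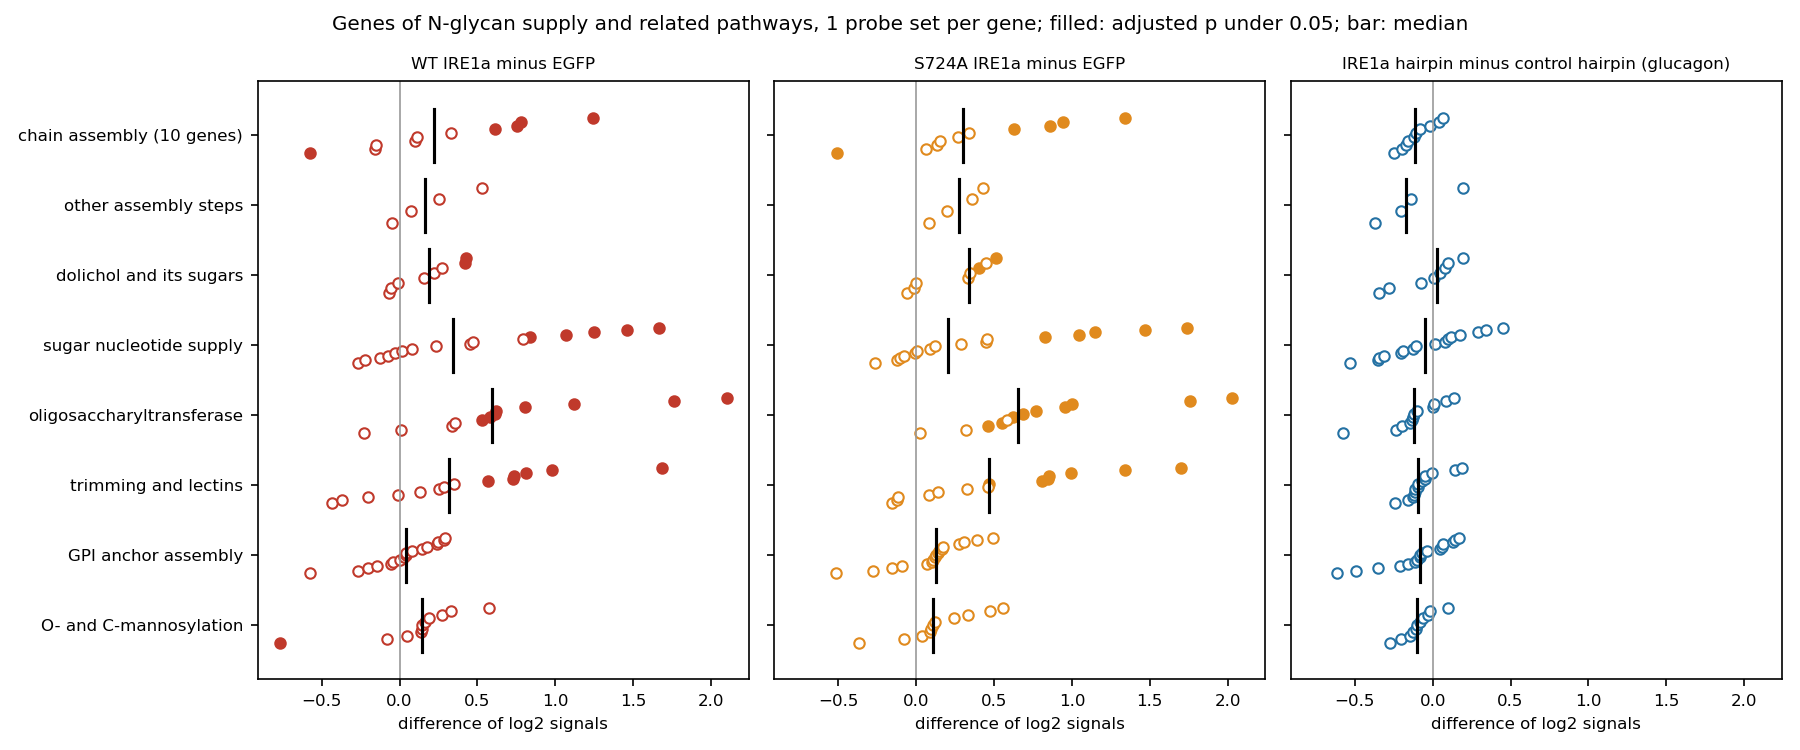
Differences of log2 signals for the 10 chain assembly genes and for 7 lists of related glycosylation genes, 1 probe set per gene, in 3 comparisons. Filled points have adjusted p under 0.05 and black bars are list medians; the chain assembly genes hold 4 filled points above 0 and 1 below in each comparison with EGFP, and the hairpin comparison has no filled point.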

How the data were processed

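RNA of 15 hepatocyte cultures was hybridised to Affymetrix 430 2.0 mouse arrays, 1 per culture. Per the submitters' processing notes the authors used GCRMA (version not given in the sources used here), a method that as usually run corrects background by probe sequence, normalises by quantiles and gives 1 value per probe set; the deposited values are log2 signals, a scale read from the values. Such normalisation sets changes relative to the bulk of probe sets. Of 45101 probe sets, 64 controls were left out, and 34945 had 1 gene symbol in the platform annotation. The 37203 probe sets with a signal of 4 or more in at least 3 arrays were fitted in R 4.3.3 with limma 3.58.1 (lmFit, eBayes, 5 groups, 10 residual degrees of freedom, two-sided, Benjamini-Hochberg, threshold 0.05), in 6 contrasts. The fit was also run on simulated data with noise drawn independently for each array. Such noise lacks the shared deviation of same-number arrays, so the run says nothing about its effect. For lists, the probe set with the highest mean over the 15 arrays stood for a gene.

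Named genes were all probe sets of the 10 members, Ern1 as a check, and up to 4 genes per list and comparison by smallest p; Uap1 was added to this rule, and cell markers were fixed as lists. Members and lists were chosen with earlier results of these data known. Alternatives were quantile normalisation, median centring, other filters, a floor, 6-array fits, trended and robust variances, gene-level values, a replicate block and leaving out each array. Replicates are cultures of 3 experiments; whether they came from separate animals is not given, so p-values measure the spread between these samples. Precision is limited by how few arrays there are: the 95% interval of a difference between groups had a median half-width of 0.31. For the differences of changes it was 0.43.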

Additional observations from a re-analysis of the deposited data

How the results depend on the processing

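Over 26 alternatives, of which 15 left out 1 array, no call among the 96 differences of the members changed sign. As counts of genes, the 4 rises and 1 fall with wild-type IRE1a and the 4 rises with S724A IRE1a stayed within 1.5 times in every alternative. The loss of 1 gene from 4 does not cross that limit. With the mean of all probe sets of a gene, 3 genes rose with each virus. With S724A IRE1a, 3 rose also without the second EGFP array or the second or the third S724A array. The count of falls with S724A IRE1a, which is Alg1, ranged from 0 to 1 over fits that left out 1 array, and was 0 without the second EGFP array or the second or the third S724A array. Counts of 0 for wild-type against S724A IRE1a and for the hairpin, and of 3 genes for each difference of changes, also held within 1.5 times. Of 1708 values recomputed for single probe sets, 23 lost a call, 18 gained 1 and 63 uncalled values changed sign; the 23 lost calls belong to Alg14, Alg1 and, in the differences of changes, to the second and the third probe sets of Alg12. Scaling moved the share of rises among called probe sets from 64.2% to 54.5% (quantile normalisation) and 68.7% (median centring) with wild-type IRE1a, and from 63.2% to 51.5% and 69.3% with S724A IRE1a. Same-number arrays of an arm deviated together in 11 of 12 pairs above r = 0.1 (r from 0.07 to 0.61), and in 24 of 24 checks an array correlated best with its own number in another group, a hint from the data and not from the labels. In a fit that took the number as a replicate block inside each arm, the second Alg14 probe set also passed in both comparisons with EGFP (adjusted p = 0.00946 and 0.00731), the second Alg12 probe set passed with wild-type IRE1a (adjusted p = 0.0224), and the calls among all probe sets rose from 1147 and 639 to 2296 and 1137 with wild-type IRE1a and from 959 and 558 to 1894 and 1120 with S724A IRE1a. The block also brought the brightest and the second Alg14 probe sets past the threshold in the differences of changes (adjusted p = 0.0174 and 0.0247 with wild-type, 0.0396 and 0.0182 with S724A IRE1a), gave 4 genes there in place of 3, and gave 195 hairpin calls in place of 56 and 2 for wild-type against S724A IRE1a in place of 0. Fitting only the 6 arrays gave 607 and 386 calls with wild-type, 1354 and 741 with S724A IRE1a and 4 with the hairpin. Leaving out 1 array gave 393 to 527 falls with wild-type and 238 to 439 with S724A IRE1a. In the differences of changes, the third Alg12 probe set with wild-type IRE1a lost its call in 5 of the fits without 1 array (adjusted p up to 0.0649) and the second with S724A IRE1a in 10 (up to 0.0839). Dim signal limits the third Alg14 probe set, the second of Alg2 and the untested probe sets, and low signal limits both of Alg6. The cause of these changes was not tested.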

Other observations

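Dolichol phosphate mannose also serves other routes of the ER, which the lists of anchor assembly and protein mannosylation cover. Of 17 tested genes that build the glycosylphosphatidylinositol (GPI) anchor, 0 rose and 0 fell with wild-type or S724A IRE1a, with medians of 0.04 and 0.13, against 4.21% and 3.25% of all genes rising and 2.17% and 1.75% falling. The member with the smallest p was Pigg, which modifies the finished anchor, at -0.57 ± 0.20 with wild-type IRE1a (adjusted p = 0.142). Of 11 genes of O- and C-mannosylation, 0 rose and 1 fell with wild-type IRE1a: Dpy19l1, a C-mannosyltransferase, at -0.77 ± 0.19 (adjusted p = 0.0342). With S724A IRE1a 0 of these 11 passed. In the hairpin comparison Pigu, a subunit of the GPI transamidase, differed by -0.49 ± 0.13 and did not pass (adjusted p = 0.219). Differences between these lists and the 10 genes of chain assembly were not tested.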
